A study of Mus musculus with 8 samples.

Results

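The Clec genes of the mouse carry a name that starts with Clec and a number, the systematic name of many genes of the C-type lectin domain family. They were taken as every such symbol in the deposited expression table, with the transcript of highest mean level standing for each symbol. This gave 32 of the 23952 symbols in the table. Of the 32, 22 reached 1 RPKM (reads per kilobase of transcript and per 1e6 reads) in at least 1 library, and 20 of these were expressed widely enough to be tested. Of the 20, 4 passed the filter through 1 group alone: Clec4b1 and Clec2g through TAM, and Clec11a and Clec14a through Fibroblast. The 2 of the 22 that were not tested, Clec12b and Clec4a4, passed 1 RPKM in a single library each.

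The libraries come from Lewis lung carcinomas, tumors of a mouse lung cancer cell line that were grown under the skin of both flanks of Col1a1-GFP transgenic mice. The line had been transfected to express the red protein dTomato, sorted for it and kept under G418 selection. Fluorescent collagen was injected into each tumor 24 h before it was taken apart and sorted, so that cells that took up collagen could be recognised. There were 4 groups of 2 libraries, described here as the labels name them. The TAM group (labelled M2 tumor-associated macrophages) was sorted as collagen-positive cells that carried the macrophage surface protein F4/80 and neither dTomato nor GFP, so macrophages that had not taken up collagen lay outside that gate. The Fibroblast group was sorted on GFP driven by the transgene, so it holds the cells in which the collagen I transgene was active. The LLC group was sorted on dTomato, and Total tumor is RNA of the whole tumor with every cell type in it. All groups share the dTomato line, the transgenic host and the collagen injection. Nothing in the labels tells if both libraries of a group stem from different tumors or mice, so p-values measure the spread between these libraries, which may be technical. The labelled cell types were checked against their markers: the summed level of 9 macrophage marker genes was 13490 and 9496 RPKM in TAM, 145 and 162 RPKM in Fibroblast and 70.5 and 316 RPKM in LLC, and that of 8 fibroblast marker genes was 139 and 660 RPKM in TAM, 24270 and 22850 RPKM in Fibroblast and 4010 and 5446 RPKM in LLC. The markers of TAM and Fibroblast were therefore highest in their own population, and LLC had more fibroblast marker RNA than TAM. Estimated depth was 8.54 to 10.37 M reads in the libraries numbered 1 and 4.29 to 4.72 M reads in those numbered 2.

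C-type lectins are built around a calcium-dependent sugar-binding fold, which several Clec proteins use for ligands other than sugars. On macrophages, dendritic cells and neutrophils, one class of Clec receptor activates the cell through the kinase Syk, either by an activating tail motif of its own or by pairing with the adaptors FcRγ (gene Fcer1g) or DAP12 (gene Tyrobp), and the signal passes on to Card9. Another class carries an inhibitory motif that recruits the phosphatases Ptpn6 and Ptpn11, and others work mainly as uptake receptors. A few Clec genes have no part in this: they encode secreted proteins of the matrix and plasma, an endothelial membrane protein and an intracellular protein of endosomes.

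The Clec genes split by sorted population. Differences were tested with limma on log2(RPKM + 1), in 1 fit over all 8 libraries, and called at a Benjamini-Hochberg adjusted p under 0.05 over the 13311 genes tested. Every log2 difference below is on that scale, which understates the change of genes at low levels. Of the 20 Clec genes tested, 12 were higher in TAM than in both Fibroblast and LLC, 3 were higher in Fibroblast than in both TAM and LLC, 2 were higher in LLC than in both TAM and Fibroblast, and 3 fell in none of these sets. Shares of all genes are given for single comparisons only, so the counts of these sets describe the Clec genes alone. In TAM minus Fibroblast, 12 of the 20 were higher and 3 lower, where 17.4% of all genes were called higher and 17.3% lower. In TAM minus LLC, 12 were higher and 2 lower, against 15.4% and 27.5% of all genes. In Fibroblast minus LLC, 4 were higher and 2 lower, against 13.0% and 25.7% of all genes. The median log2 difference over the 20 genes was 3.63 in TAM minus Fibroblast, 3.57 in TAM minus LLC and 0.09 in Fibroblast minus LLC, beside 0.13, -0.38 and -0.46 over all genes tested. Since the 4 genes that passed the filter through 1 group had to be higher there to be tested, counts and medians over the 20 describe the tested genes and are no support for a pattern. Over the other 16, 10 were higher and 1 lower in TAM minus Fibroblast (median 4.25), 10 and 2 in TAM minus LLC (median 4.17), and 2 and 2 in Fibroblast minus LLC (median 0.09). With either Fibroblast library left out, fewer Clec genes were called lower in TAM minus Fibroblast and higher in Fibroblast minus LLC. Fewer of all genes were called there as well. Upper-quartile scaling changed the Clec counts little, to 12 higher and 4 lower in TAM minus Fibroblast, 13 and 2 in TAM minus LLC and 4 and 2 in Fibroblast minus LLC. Over all genes it moved the share of calls that were higher to 38.4% from 50.1% in TAM minus Fibroblast and to 60.7% from 33.6% in Fibroblast minus LLC, and quantile scaling moved it to 46.3% from 35.9% in TAM minus LLC. The 3 comparisons share their libraries, so they are not independent of one another. In RNA from pools of cells, fewer cells of a type and less RNA per cell cannot be told apart.

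Some markers of other immune cells were also higher in TAM. In TAM minus Fibroblast, 4 of 6 neutrophil markers tested were called higher, 2 of 4 classical dendritic cell markers (Batf3 and Cd209a), 2 of 5 T and NK cell markers and 1 of 4 B cell markers (Cd79b), and the counts in TAM minus LLC were the same. Of all genes, 17.4% were called higher in the first comparison and 15.4% in the second. Of 4 plasmacytoid dendritic cell markers, 0 were called higher in either comparison, and Tcf4 was called lower in TAM minus LLC, at -1.795. The neutrophil markers summed to 86.8 and 74.0 RPKM in TAM, 6.02 and 2.91 RPKM in Fibroblast and 1.82 and 5.81 RPKM in LLC. The classical dendritic cell markers summed to 26.8 and 44.0 RPKM in TAM, 6.98 and 6.81 RPKM in Fibroblast and 2.47 and 5.45 RPKM in LLC. The B cell markers summed to 54.95 and 16.5 RPKM in TAM, 2.12 and 1.58 RPKM in Fibroblast and 1.26 and 1.18 RPKM in LLC. Sums over different marker lists are no measure of cell shares, and the part of these cells in the TAM levels of the Clec genes was not tested.

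**Figure D1:**
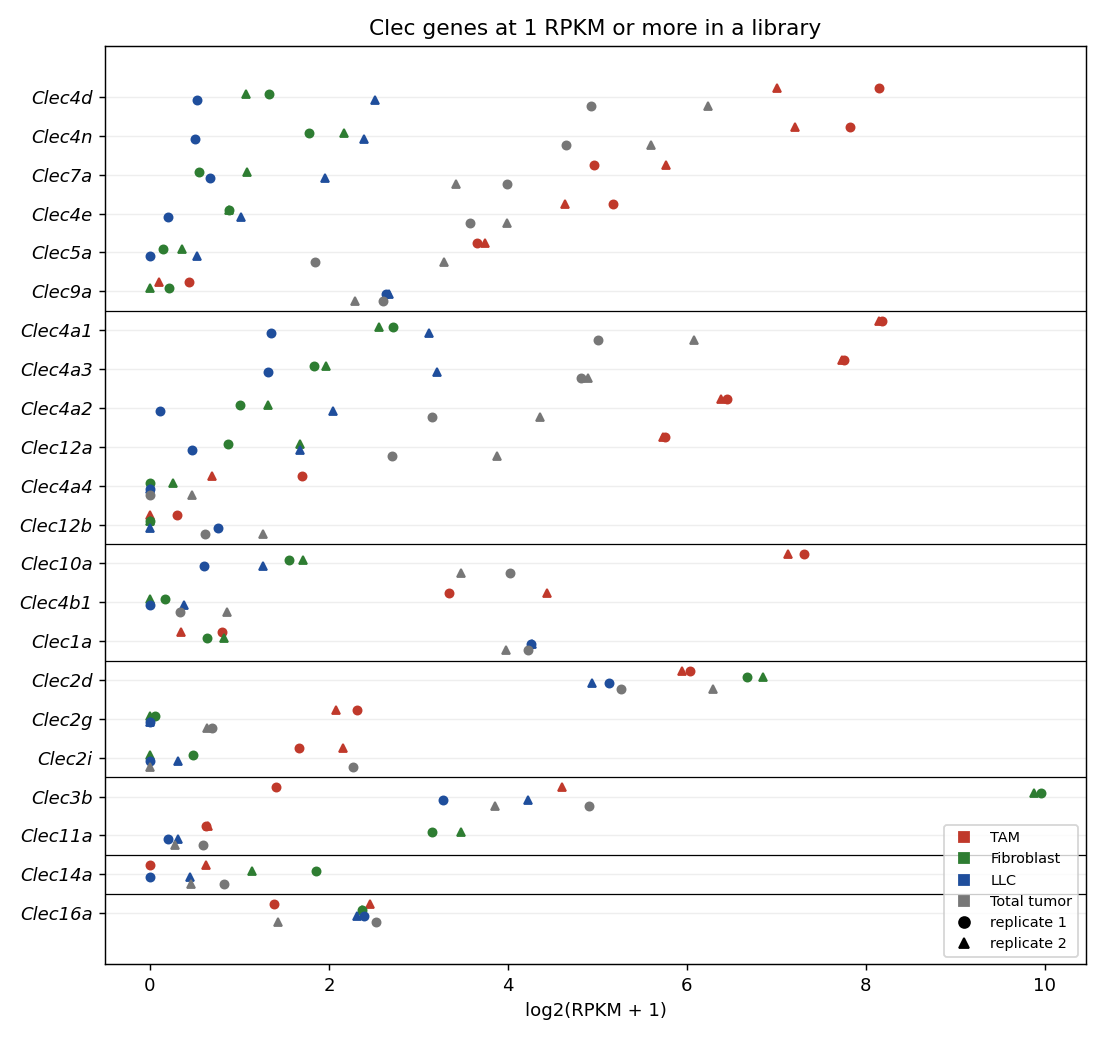
Level of the 22 Clec genes that reached 1 RPKM in a library, as log2(RPKM + 1) along the horizontal axis, 1 row per gene with lines between the role groups. Circles are replicate 1 and triangles replicate 2, coloured by group: Clec3b stands above 900 RPKM in both Fibroblast libraries, Clec1a and Clec9a are high in LLC and Total tumor alone, and the TAM points lie furthest right for the 12 genes higher in TAM than in both other sorted populations.

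The activating receptors were led by the Clec4 genes. Clec4d and Clec4e encode MCL and Mincle, which pair with FcRγ and bind the glycolipids of mycobacteria, Mincle also sensing dying cells, and Clec4n encodes Dectin-2, an FcRγ-coupled receptor for fungal mannans. Clec4d had 282 and 128 RPKM in TAM, against 1.52 and 1.11 RPKM in Fibroblast, 0.434 and 4.73 RPKM in LLC and 29.4 and 74.2 RPKM in Total tumor. Clec4n had 225 and 147 RPKM in TAM, against 2.43 and 3.48 RPKM in Fibroblast, 0.418 and 4.25 RPKM in LLC and 24.1 and 47.3 RPKM in Total tumor. Both genes were thus highest in the 2 TAM libraries, second in Total tumor and low in the other sorted populations, with no overlap between TAM and any other group. Clec4d differed by 6.37 (SE 0.71, limma adjusted p = 0.000323) in TAM minus Fibroblast and by 6.06 (adjusted p = 0.000469) in TAM minus LLC, and the first of these is the largest difference between TAM and Fibroblast among the 12 genes. Clec4n differed by 5.54 (SE 0.61, limma adjusted p = 0.000307) in TAM minus Fibroblast and by 6.06 (adjusted p = 0.000264) in TAM minus LLC.

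Clec4e was lower in every library than Clec4d, and again highest in TAM. It had 35.04 and 23.9 RPKM in TAM, against 0.841 and 0.838 RPKM in Fibroblast, 0.153 and 1.02 RPKM in LLC and 10.9 and 14.9 RPKM in Total tumor. Clec4e differed by 4.02 (SE 0.36, limma adjusted p = 0.000162) in TAM minus Fibroblast and by 4.29 (adjusted p = 0.000163) in TAM minus LLC.

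Clec7a encodes Dectin-1, the receptor for fungal beta-glucans that carries its own activating motif. It had 30.1 and 53.2 RPKM in TAM, against 0.465 and 1.11 RPKM in Fibroblast, 0.592 and 2.87 RPKM in LLC and 14.9 and 9.69 RPKM in Total tumor. Unlike Clec4d, Clec4n and Clec4e, it was higher in the second TAM library than in the first. The difference was 4.54 (SE 0.50, limma adjusted p = 0.000301) in TAM minus Fibroblast and 4.05 (adjusted p = 0.000565) in TAM minus LLC.

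Clec5a encodes MDL-1, which signals through DAP12. It had 11.6 and 12.3 RPKM in TAM, against 0.103 and 0.281 RPKM in Fibroblast, 0 and 0.436 RPKM in LLC and 2.59 and 8.77 RPKM in Total tumor. Its 2 TAM libraries lay close together, and TAM was higher by 3.45 than Fibroblast (SE 0.46, limma adjusted p = 0.000799) and by 3.43 than LLC (adjusted p = 0.000899).

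The DCIR genes and Clec12a are grouped here as inhibitory receptors, though no inhibitory motif is claimed for Clec4a1 or Clec4a3. Of this group, 4 of 4 tested members were higher in both TAM minus Fibroblast and TAM minus LLC. Of all genes, 17.4% and 15.4% were called higher in these comparisons. Clec4a2 encodes DCIR, which carries an inhibitory motif, and Clec4a1 and Clec4a3 are its tandem relatives. Clec4a1 had the highest mean of all Clec genes in TAM, with 289.7 and 282 RPKM there, against 5.57 and 4.89 RPKM in Fibroblast, 1.55 and 7.65 RPKM in LLC and 31.0 and 66.8 RPKM in Total tumor. Clec4a3 had 214 and 212 RPKM in TAM, against 2.57 and 2.90 RPKM in Fibroblast, 1.49 and 8.23 RPKM in LLC and 27.3 and 28.8 RPKM in Total tumor. Clec4a2 had 86.1 and 82.4 RPKM in TAM, against 1.00 and 1.495 RPKM in Fibroblast, 0.0797 and 3.11 RPKM in LLC and 7.88 and 19.5 RPKM in Total tumor. All 3 genes were nearly equal in the 2 TAM libraries, where Clec4d had been higher in the first. TAM minus Fibroblast was 5.53 for Clec4a1 (SE 0.57, limma adjusted p = 0.000233), 5.84 for Clec4a3 (SE 0.53, adjusted p = 0.000162) and 5.25 for Clec4a2 (SE 0.63, adjusted p = 0.000466). TAM minus LLC was 5.93 for Clec4a1, 5.48 for Clec4a3 and 5.34 for Clec4a2, with limma adjusted p-values of 0.000233, 0.000234 and 0.000485. These genes are close copies of each other, and how reads that match several of them were counted is not given in the sources used here, so the split of reads among them is uncertain. Clec4a4, a further DCIR gene, had 2.26 and 0.617 RPKM in TAM and was at most 0.390 RPKM in any other library.

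Clec12a encodes an inhibitory receptor that senses uric acid crystals of dead cells. It had 53.1 and 52.0 RPKM in TAM, against 0.824 and 2.19 RPKM in Fibroblast, 0.390 and 2.21 RPKM in LLC and 5.54 and 13.7 RPKM in Total tumor. The difference was 4.47 (SE 0.53, limma adjusted p = 0.000435) in TAM minus Fibroblast and 4.67 (adjusted p = 0.000415) in TAM minus LLC. Its neighbour Clec12b had 0.231 and 0 RPKM in TAM, 0 in both Fibroblast libraries, 0.697 and 0 RPKM in LLC and 0.527 and 1.40 RPKM in Total tumor, too low to be tested.

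Clec10a encodes MGL1, a galactose-binding uptake receptor widely used as a marker of alternatively activated macrophages. It had 158 and 138 RPKM in TAM, against 1.93 and 2.26 RPKM in Fibroblast, 0.516 and 1.41 RPKM in LLC and 15.2 and 10.1 RPKM in Total tumor. It was the member with the smallest adjusted p in both comparisons: the difference was 5.59 (SE 0.32, limma adjusted p = 0.000104) in TAM minus Fibroblast and 6.28 (adjusted p = 9.87e-05) in TAM minus LLC. Clec4b1 encodes DCAR, an activating relative of DCIR. It had 9.16 and 20.7 RPKM in TAM, against 0.124 and 0 RPKM in Fibroblast, 0 and 0.300 RPKM in LLC and 0.257 and 0.817 RPKM in Total tumor. It was under 1 RPKM in every library outside TAM, so that it was tested only through the TAM libraries, and differed by 3.81 (SE 0.40, limma adjusted p = 0.000261) in TAM minus Fibroblast and by 3.70 (adjusted p = 0.000352) in TAM minus LLC.

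Promoter sequences, 250 bases before to 50 after the start of the gene, were available from RefSeq (build GRCm38.p6) for 10 of the 12 genes higher in TAM. They were searched on both strands for 3 short motifs of factors active in myeloid cells: GAGGAAGT for PU.1, TTGCNNAA for C/EBP factors and TGANTCA for AP-1, none of which overlaps another in these windows. The PU.1 motif was in 0 of the 10 windows, against 3.69% of 27025 genes with such a window. The C/EBP motif was in 2 of 10 (12.2% of all genes), and the AP-1 motif in 3 of 10 (8.97% of all genes). The windows of an activating receptor, Clec4e, and of both inhibitory receptors with a match, Clec12a and Clec4a2, are shown because they hold these matches, in capitals, on the strand of the gene: the C/EBP motif 66 bases upstream of the start of Clec4e, the AP-1 motif 213 and the C/EBP motif 140 bases upstream of Clec12a, and the AP-1 motif 31 bases after the start of Clec4a2. Clec4e lies on the minus strand at chr6:123289822-123290121, Clec12a on the plus strand at chr6:129349994-129350293 and Clec4a2 on the plus strand at chr6:123122440-123122739. A match of letters is a description and was not tested as a binding site.
Clec4e: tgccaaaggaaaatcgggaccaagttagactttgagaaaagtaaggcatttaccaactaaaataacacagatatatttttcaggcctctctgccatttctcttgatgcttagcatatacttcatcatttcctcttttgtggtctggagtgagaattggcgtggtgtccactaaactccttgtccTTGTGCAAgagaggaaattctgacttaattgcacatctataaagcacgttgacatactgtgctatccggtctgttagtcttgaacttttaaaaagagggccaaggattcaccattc
Clec12a: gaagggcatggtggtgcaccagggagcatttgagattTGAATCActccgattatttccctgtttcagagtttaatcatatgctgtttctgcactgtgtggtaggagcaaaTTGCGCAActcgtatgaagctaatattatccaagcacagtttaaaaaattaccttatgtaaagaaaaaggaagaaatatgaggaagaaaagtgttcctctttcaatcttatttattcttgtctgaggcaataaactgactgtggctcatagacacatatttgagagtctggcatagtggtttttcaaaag
Clec4a2: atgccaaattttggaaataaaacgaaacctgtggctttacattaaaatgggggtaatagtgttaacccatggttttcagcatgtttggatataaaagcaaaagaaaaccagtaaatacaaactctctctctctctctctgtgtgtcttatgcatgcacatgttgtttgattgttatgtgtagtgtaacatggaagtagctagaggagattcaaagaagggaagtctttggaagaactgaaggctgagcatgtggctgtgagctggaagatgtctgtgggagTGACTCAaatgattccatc

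The signalling partners of these receptors, 23 genes listed for this purpose and all tested, were mostly higher in TAM as well. In TAM minus Fibroblast 19 were higher and 1 lower, against 17.4% and 17.3% of all genes, with a median of 4.39 beside 0.13. In TAM minus LLC 18 were higher and 1 lower, against 15.4% and 27.5% of all genes, with a median of 3.95 beside -0.38. Both adaptors stood at the top: Fcer1g had 2543 and 1869 RPKM in TAM, against 25.9 and 31.7 RPKM in Fibroblast, 7.37 and 68.9 RPKM in LLC and 199 and 850.0 RPKM in Total tumor, and differed by 6.20 in TAM minus Fibroblast and by 6.49 in TAM minus LLC. Tyrobp had 1607 and 1169 RPKM in TAM, against 17.0 and 17.7 RPKM in Fibroblast, 11.2 and 41.2 RPKM in LLC and 142 and 573 RPKM in Total tumor, and differed by 6.22 and 5.92 in these comparisons. Ptpn6, a phosphatase recruited by the inhibitory class, followed in TAM minus Fibroblast, at 5.56. Ptpn11, the other phosphatase of that class, was not called, at -0.78 in TAM minus Fibroblast (limma adjusted p = 0.0918) and -0.63 in TAM minus LLC (adjusted p = 0.139). The member called lower in TAM was the broadly expressed kinase Src, by -2.25 in TAM minus Fibroblast and -2.90 in TAM minus LLC. Syk, the kinase on which the activating receptors converge, was the 1 partner called higher in Fibroblast than in LLC: it had 74.4 and 82.6 RPKM in TAM, 19.4 and 22.0 RPKM in Fibroblast and 1.15 and 3.11 RPKM in LLC, and differed by 2.87 (limma adjusted p = 0.00069) in Fibroblast minus LLC.

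The Clec2 genes, which encode ligands of the Nkrp1 receptors of natural killer cells, were divided. Clec2d, the ligand through which Nkrp1d (gene Klrb1b) holds these cells back, was the one Clec gene above 10 RPKM in all 8 libraries. It had 64.7 and 60.8 RPKM in TAM, 101 and 115 RPKM in Fibroblast, 34.0 and 29.7 RPKM in LLC and 37.4 and 77.2 RPKM in Total tumor. The sorted populations did not overlap, in the order Fibroblast, TAM, LLC. Fibroblast minus LLC was 1.73 (SE 0.34, limma adjusted p = 0.00645), and without the second Fibroblast library its adjusted p was 0.0607. TAM minus LLC was 0.96 (95% interval 0.17 to 1.75, limma adjusted p = 0.0528) and TAM minus Fibroblast -0.77 (95% interval -1.56 to 0.02, adjusted p = 0.123). Neither passed the threshold here. Over the alternatives their adjusted p-values ran from 0.00279 to 0.2 and from 0.00817 to 0.403.

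Clec2g was a low TAM gene, with 3.98 and 3.22 RPKM in TAM, against 0.0424 and 0 RPKM in Fibroblast, 0 in both LLC libraries and 0.611 and 0.555 RPKM in Total tumor. Like Clec4b1, it was tested only through the TAM libraries. It was higher in TAM than in Fibroblast by 2.17 (SE 0.23, limma adjusted p = 0.000252) and was called against LLC (adjusted p = 0.000291), where it is listed at 0 and no fold is given. Clec2i had 2.17 and 3.47 RPKM in TAM, 0.398 and 0 RPKM in Fibroblast, 0 and 0.241 RPKM in LLC and 3.82 and 0 RPKM in Total tumor. Its difference was 1.67 in TAM minus Fibroblast (95% interval 0.15 to 3.19, limma adjusted p = 0.0876) and 1.76 in TAM minus LLC (adjusted p = 0.0626), and its 2 Total tumor libraries lay at both ends of its range. The receptor gene Klrb1b had 3.75 and 5.16 RPKM in TAM, 0.523 and 0.191 RPKM in Fibroblast and 0.0866 and 0.106 RPKM in LLC, a difference of 2.01 in TAM minus Fibroblast and 2.30 in TAM minus LLC.

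**Figure D2:**
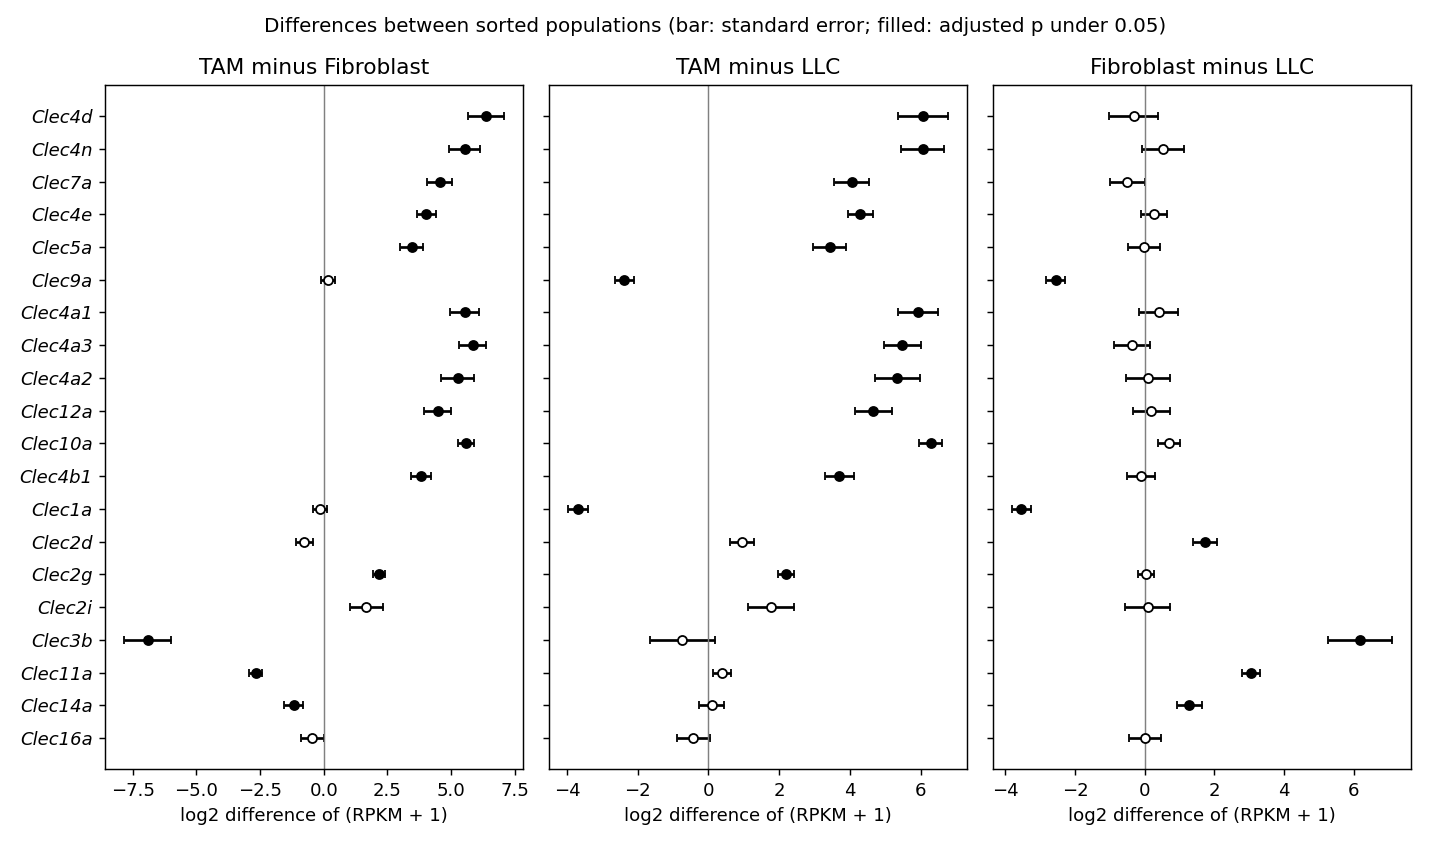
Log2 difference of the 20 tested Clec genes on the log2(RPKM + 1) scale, in a panel each for TAM minus Fibroblast, TAM minus LLC and Fibroblast minus LLC. Points are limma estimates from 2 libraries a group, bars are standard errors, filled points passed an adjusted p under 0.05, and each panel has its own axis range. The 12 genes higher in TAM lie between 2.17 and 6.37 in TAM minus Fibroblast and between -0.50 and 0.70, none filled, in Fibroblast minus LLC.

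Of the secreted lectins, Clec3b and Clec11a were higher in Fibroblast than in TAM and LLC, Clec11a being tested only through the Fibroblast libraries. Clec3a and Clec18a were listed at 0 in all libraries. Clec3b encodes tetranectin, a plasma and matrix protein that binds plasminogen. It had 1.65 and 23.3 RPKM in TAM, 992 and 937 RPKM in Fibroblast, 8.66 and 17.7 RPKM in LLC and 29.0 and 13.5 RPKM in Total tumor. Fibroblast stood far above all other libraries, and the 2 TAM libraries were far apart, below and above both LLC libraries. TAM minus Fibroblast was -6.91 (SE 0.92, limma adjusted p = 0.000733) and Fibroblast minus LLC was 6.17 (SE 0.92, adjusted p = 0.00207). TAM minus LLC was -0.74 (95% interval -2.87 to 1.39, limma adjusted p = 0.55), and it turned on a single library: it was -2.34 without the second TAM library (adjusted p = 0.0222) and 0.85 without the first (adjusted p = 0.299). The fibroblast markers moved with it: the median of the 8 markers was 0.742% of its Fibroblast mean in the first TAM library and 2.70% in the second, and Clec3b stood at 0.171% and 2.41%. In LLC, Clec3b was at 0.897% and 1.83% of its Fibroblast mean, and the fibroblast markers ranged widely, from 1.13% to 67.6% in the first library and from 3.92% to 65.8% in the second, with Col1a1 and Col1a2 lowest. The part of fibroblast RNA in the TAM and LLC levels of Clec3b was not tested.

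Clec11a encodes a secreted growth factor of blood and bone progenitors. It had 0.538 and 0.572 RPKM in TAM, against 7.88 and 10.1 RPKM in Fibroblast, 0.148 and 0.239 RPKM in LLC and 0.512 and 0.217 RPKM in Total tumor. Fibroblast was the one group above 1 RPKM, through which alone it was tested, with -2.68 in TAM minus Fibroblast (SE 0.26, limma adjusted p = 0.000191) and 3.06 in Fibroblast minus LLC (SE 0.26, adjusted p = 0.000346). Clec14a encodes a membrane protein of endothelial cells. It had 0 and 0.541 RPKM in TAM, against 2.62 and 1.21 RPKM in Fibroblast, 0 and 0.359 RPKM in LLC and 0.770 and 0.373 RPKM in Total tumor. It was lower in TAM than in Fibroblast by -1.19 (SE 0.36, limma adjusted p = 0.035) and higher in Fibroblast than in LLC by 1.28 (SE 0.36, adjusted p = 0.0255), but the adjusted p reached 0.221 and 0.154 under alternatives, so these calls are not stable. The summed level of 8 endothelial marker genes was 15.7 and 31.6 RPKM in TAM, 69.4 and 57.5 RPKM in Fibroblast, 2.60 and 5.07 RPKM in LLC and 44.2 and 45.0 RPKM in Total tumor, and its part in the Clec14a difference was not tested. Clec11a and Clec14a were each at 1 RPKM or more in the 2 Fibroblast libraries alone, so neither could be tested with one of these left out.

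Clec16a, an endosomal protein that takes part in the turnover of mitochondria and is not a surface receptor, gave no call in any comparison of the sorted populations, and nor did Clec2i. It had 1.61 and 4.48 RPKM in TAM, 4.15 and 4.16 RPKM in Fibroblast, 4.23 and 3.96 RPKM in LLC and 4.78 and 1.70 RPKM in Total tumor. The difference was -0.45 in TAM minus Fibroblast (95% interval -1.52 to 0.63, limma adjusted p = 0.513) and -0.43 in TAM minus LLC (adjusted p = 0.491).

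Clec1a and Clec9a were the 2 Clec genes higher in LLC. Clec1a encodes a receptor for fungal melanin known from endothelial and myeloid cells, and Clec9a encodes DNGR-1, a receptor for the exposed actin of dead cells that marks type 1 classical dendritic cells. Clec1a had 0.751 and 0.273 RPKM in TAM and 0.559 and 0.774 RPKM in Fibroblast, against 18.2 and 18.3 RPKM in LLC and 17.7 and 14.7 RPKM in Total tumor. Clec9a had 0.357 and 0.0761 RPKM in TAM and 0.163 and 0 RPKM in Fibroblast, against 5.23 and 5.38 RPKM in LLC and 5.09 and 3.88 RPKM in Total tumor. Both genes were thus high in the 4 libraries that hold tumor cells and below 1 RPKM in the other 4. TAM minus LLC was -3.69 for Clec1a (SE 0.28, limma adjusted p = 0.000134) and -2.38 for Clec9a (SE 0.27, adjusted p = 0.0004), and Fibroblast minus LLC was -3.53 (adjusted p = 0.000321) and -2.55 (adjusted p = 0.00056). LLC minus Total tumor was 0.17 for Clec1a (95% interval -0.49 to 0.82) and 0.21 for Clec9a (95% interval -0.42 to 0.83), with limma adjusted p-values of 0.836 and 0.789.

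Markers of the cells in which these 2 genes are known were set beside them in LLC. Of the 7 classical dendritic cell markers, Ccr7 was highest there, at 1.02 and 2.95 RPKM, then Zbtb46 at 0.526 and 1.505 RPKM, while Flt3 was at 0.555 and 0.192 RPKM, Batf3 at 0.272 and 0.329 RPKM and Xcr1 at 0.0215 and 0 RPKM. Macrophage markers summed to 70.5 and 316 RPKM in LLC. The 8 endothelial markers summed to 2.60 and 5.07 RPKM there, with none at 1 RPKM in both libraries. The part of any of these cells in the LLC levels of Clec1a and Clec9a was not tested. Clec9a and Clec1a also lie side by side on chromosome 6, on opposite strands and facing each other with their 3′ ends. The ratio of Clec1a to Clec9a was 3.48 and 3.41 in LLC and 3.49 and 3.79 in Total tumor. Whether reads were counted by strand is not given in the sources used here, so reads that run from one gene into the other cannot be told apart, and the level of each is uncertain to that extent.

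Genome position grouped the family. On chromosome 6 lay 24 of the 32 Clec genes, 17 of the 22 detected and 11 of the 12 higher in TAM, Clec10a being the exception on chromosome 11. In the Clec4 cluster, the order along the chromosome in the RefSeq annotation of GRCm38.p6 was Clec4a1, Clec4a3, Clec4a4, Clec4b1, Clec4a2, Clec4b2, Clec4n, Clec4d and Clec4e. Of these 9 neighbours, 7 were higher in TAM than in both other sorted populations, Clec4a4 was too low to be tested and Clec4b2 was listed at 0 in every library. Among the 7, Clec4b1 was tested only through TAM. The split of reads among Clec4a1, Clec4a3 and Clec4a2 is uncertain, so the 7 are not independent. The share of all genes with this pattern is not given here. The stretch from Clec12a to Clec7a was mixed: Clec12a and Clec7a at its ends were higher in TAM, Clec9a and Clec1a between them were higher in LLC, and Clec12b and Clec1b were low throughout. Genes of opposite pattern were thus next to each other, Clec1a at 18.2 and 18.3 RPKM in LLC beside Clec7a at 0.592 and 2.87 RPKM there.

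**Figure D3:**
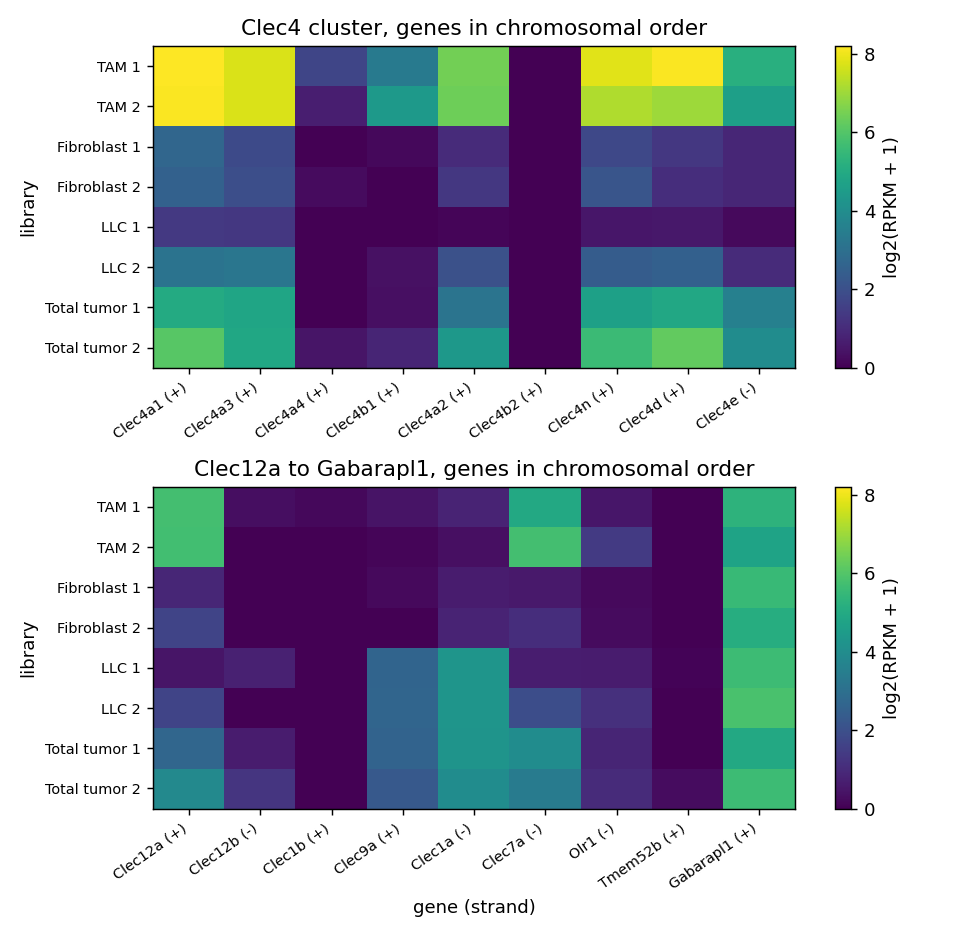
Levels of neighbouring genes on 2 stretches of chromosome 6, as colour on a log2(RPKM + 1) scale, with a column per gene in chromosomal order (strand in parentheses) and a row per library. In the Clec4 cluster the 2 TAM rows are brighter than the other rows for every gene except Clec4b2, which is listed at 0 throughout. In the stretch from Clec12a to Gabarapl1, Clec9a and Clec1a are brightest in the LLC and Total tumor rows, beside Clec7a, which is brightest in TAM.

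In the whole tumor, the TAM genes lay between the sorted populations. For 11 of the 12, all but Clec4b1, both Total tumor libraries were below both TAM libraries and above all Fibroblast and LLC libraries. The 12 were picked as higher in TAM than in both other sorted populations. The share of all genes with this order is not given here, so it is not shown to be a trait of Clec genes. In TAM minus Total tumor, 10 of 20 Clec genes were higher and 2 lower, where 11.3% of all genes were called higher and 23.9% lower. Clec4b1 and Clec2g, tested only through TAM, are among the 10. Over the 16 members that passed the filter through more than 1 group, 8 were higher and 2 lower. The largest differences were 3.47 for Clec10a (limma adjusted p = 0.000654) and 3.30 for Clec4b1 (adjusted p = 0.00142), and the smallest called was 1.12 for Clec4e (adjusted p = 0.0454). The lower genes were Clec1a at -3.52 (limma adjusted p = 0.000427) and Clec9a at -2.17 (adjusted p = 0.00148). With either TAM library left out, fewer Clec genes and fewer of all genes were called higher. Clec4b1 and Clec2g then fell under the filter and were not tested. Of all genes called in TAM minus Total tumor 32.2% were higher, and 50.4% with quantile scaling. The 2 genes of the 12 that were not called were Clec4d, at 2.00 (limma adjusted p = 0.0625), and Clec5a, at 1.13 (adjusted p = 0.0968).

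The genes kept different shares of their TAM level in the whole tumor. Clec5a stood at 21.7% and 73.3% of its TAM mean in the 2 Total tumor libraries, Clec4e at 36.9% and 50.6%, and Clec4d at 14.3% and 36.2%. Clec7a stood at 35.7% and 23.3%, so it was higher in the first library, unlike Clec5a, Clec4e and Clec4d. At the other end, Clec10a stood at 10.3% and 6.80% and Clec4b1 at 1.72% and 5.48%. The median of the 12 genes was 12.9% and 23.3%, beside 9.56% and 22.7% for the 9 macrophage markers. The neutrophil markers, of which 7 were in the table, summed to 86.8 and 74.0 RPKM in TAM and to 137 and 601 RPKM in Total tumor, a sum carried by S100a8 and S100a9. Of the 6 tested, Mmp8 was called higher in TAM than in Total tumor, S100a8, S100a9 and Cxcr2 lower, and Csf3r, at 32.03 and 29.9 RPKM in TAM against 12.2 and 15.5 RPKM in Total tumor, was not called. Their part in the Total tumor level of Clec5a, Clec4d, Clec4e and Clec7a was not tested.

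In LLC minus Total tumor, 5 of 20 Clec genes were lower and 0 higher, where 2.3% of all genes were called lower and 0.0526% higher. At an unadjusted p under 0.05, limma gave 11 lower and 0 higher, and the share of all genes at that threshold is not given here. The 5 were Clec4d at -4.06, Clec4n at -3.67, Clec4a1 at -3.31, Clec4e at -3.17 and Clec10a at -2.81, with limma adjusted p-values of 0.0354, 0.0309, 0.034, 0.0203 and 0.0202. None was called with only LLC and Total tumor in the fit, where 0 of 12078 genes were called in either direction. With single libraries left out, the counts of Clec genes and of all genes called lower both varied widely. In Fibroblast minus Total tumor, 3 of 20 were higher and 12 lower, where 12.1% of all genes were called higher and 30.0% lower. Those higher were Clec3b at 5.53, Clec11a at 2.87 and Clec2d at 0.99 (limma adjusted p = 0.049), the last of which reached 0.214 under alternatives. Clec11a was tested only through Fibroblast. Over the 16 members that passed the filter through more than 1 group, 2 were higher and 12 lower. With either Fibroblast library left out, fewer Clec genes and fewer of all genes were called higher. Of all genes called in this comparison 28.8% were higher, and 55.8% with upper-quartile scaling. The 12 lower genes were Clec1a, Clec9a and 10 of the 12 higher in TAM.

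The second LLC library carried more of the TAM genes than the first: 11 of the 12 were higher in LLC 2. The share of all genes higher in LLC 2 is not given here. The median of the 12 genes was 0.287% of the TAM mean in the first LLC library and 3.07% in the second, and that of the 9 macrophage markers was 0.501% and 2.80%. In Fibroblast the 12 genes had medians of 1.20% and 1.74% and the macrophage markers 1.25% and 1.56%. The exception among the macrophage markers was Mertk, at 34.7% and 41.2% in LLC. The part of macrophage RNA in the LLC and Fibroblast levels of the 12 genes was not tested.

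**Figure D4:**
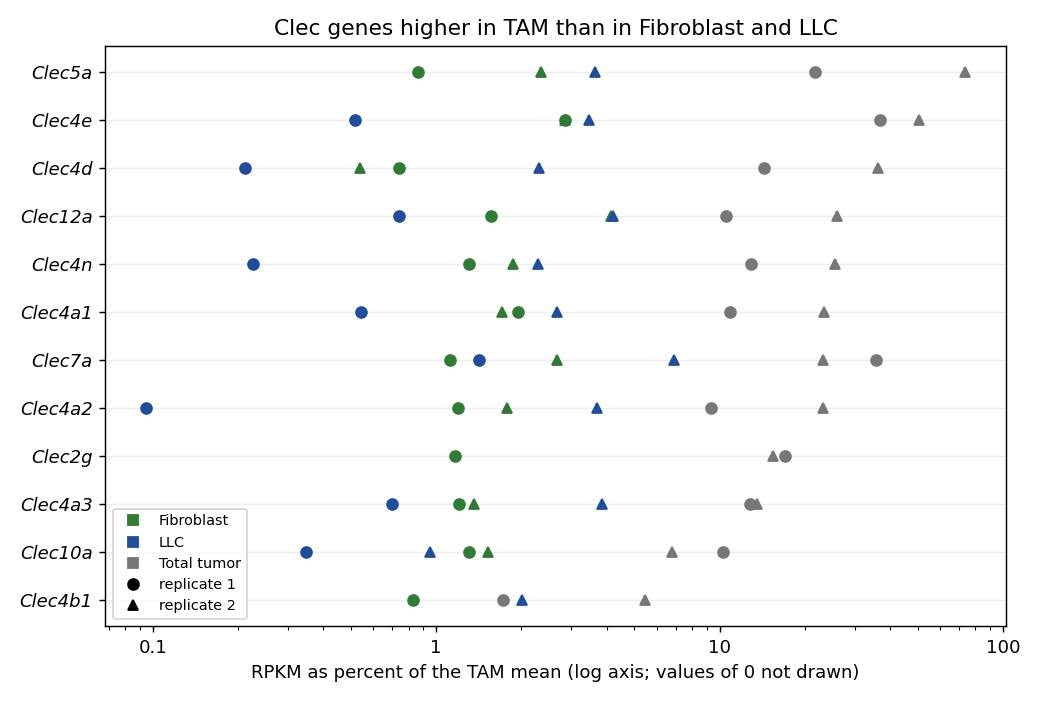
RPKM of the 12 Clec genes higher in TAM, each as a percent of its own TAM mean, in the Fibroblast, LLC and Total tumor libraries on a logarithmic axis, where values of 0 are not drawn. Circles are replicate 1 and triangles replicate 2: the LLC triangles lie right of the LLC circles, with medians of 0.287% in the first LLC library and 3.07% in the second, and Clec5a reaches 73.3% in the second Total tumor library.

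Summed over the family, the Clec genes came to 1473 and 1250 RPKM in TAM, 1127 and 1090 RPKM in Fibroblast, 76.8 and 112 RPKM in LLC and 269.7 and 409 RPKM in Total tumor. TAM and Fibroblast reached like totals with different genes. The 12 TAM genes made up 94.9% and 92.4% of the sum in TAM, while Clec3b alone made up 88.0% and 86.0% in Fibroblast. Since the 12 were picked as higher in TAM in these same libraries, a large share there follows in part from that choice. In LLC the largest single share was that of Clec2d, 44.2% and 26.5%.

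Other genes with a C-type lectin domain, 50 listed and 32 tested, were also divided between the populations. In TAM minus Fibroblast 16 were higher and 9 lower, against 17.4% and 17.3% of all genes, with a median of 1.60 beside 0.13. In TAM minus LLC 17 were higher and 6 lower, against 15.4% and 27.5% of all genes, with a median of 1.97 beside -0.38. The mannose receptor Mrc1 was the highest in both, at 6.17 and 5.98, followed by Mgl2, the closest relative of Clec10a, at 4.70 and 5.22. Those furthest below in TAM minus Fibroblast were Cd248 at -6.39, the collagen receptor Mrc2 at -5.35 and the collectin Colec12 at -3.29.

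The 10 Clec genes under 1 RPKM in every library were Clec18a, Clec1b, Clec2e, Clec2f, Clec2h, Clec2l, Clec3a, Clec4b2, Clec4f and Clec4g. Of these, 5 (Clec18a, Clec2h, Clec3a, Clec4b2 and Clec4f) were listed at 0 in all libraries, and Clec2l came nearest to the limit, at 0.811 RPKM, while Clec12b at 1.40 RPKM was the lowest member above it. Clec4f is known as a marker of the resident macrophages of the liver. Clec1b encodes the platelet receptor for podoplanin (gene Pdpn) and was at most 0.127 RPKM, while Pdpn had 96.0 and 80.4 RPKM in TAM, 274 and 267 RPKM in Fibroblast, 3.98 and 12.5 RPKM in LLC and 19.03 and 23.6 RPKM in Total tumor. Pdpn was lower in TAM than in Fibroblast by -1.61 (limma adjusted p = 0.0218) and higher in TAM than in LLC by 3.44 (adjusted p = 0.000629). For a transcript of 2 kb, 1 read was worth 0.0482 to 0.117 RPKM at the estimated depths, so values below about that level rest on single reads.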

How the data were processed

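RNA sequencing was done on 8 libraries, 2 each of TAM, Fibroblast, LLC and Total tumor; per the labels, 200 ng of RNA was primed with oligo-dT and read at 50 bp. The deposited values are RPKM computed by the authors. STAR, HOMER and the mouse build mm9 are named, per the submitters' processing notes; what version, read filter, multi-mapping rule and strandedness applied is not given in the sources used here. RPKM values are not counts, so no count test was run.

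The table lists 31645 transcripts; 3 without a gene name (at most 0.00316% of a library's sum) were left out, and the transcript with the highest mean stood for each of 23952 symbols. Genes at 1 RPKM or more in at least 2 libraries (13311) were fitted with limma 3.58.1 in R 4.3.3 on log2(RPKM + 1), a pseudocount of 1, with a mean-variance trend. The fit, tested on simulated data, had 4 residual and 3.62 prior degrees of freedom. Depth was estimated from the spacing of low RPKM values with RefSeq transcript lengths for 92.0% of transcripts; between 58.2% and 62.5% of the values used came within 0.05 of a whole read, so no reads were recovered and precision rests on 2 libraries a group.

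Every symbol starting with Clec and a digit is a member, and all that reached 1 RPKM are named; of the other lists, up to 3 genes in each direction with the largest called difference are named, plus genes that carry a stated relation to a member (Syk, Ptpn11, Pdpn and Klrb1b), chosen after their values were seen. One gene that this rule names is not reported here. The members and lists were chosen with earlier results of these data known. Alternatives were other pseudocounts (0.1, 5), other filters (none, 5 RPKM), upper-quartile and quantile scaling, a replicate block, no variance trend, summed transcripts, only the groups compared, and leaving out each library. Genome coordinates other than those of the RefSeq promoters are not printed, since the annotation used belongs to another build than the values.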

Additional observations from a re-analysis of the deposited data

How the results depend on the processing

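Of 67 called differences of single Clec genes, 49 kept their call under every alternative run, 18 lost it under at least 1, and 0 reversed. The counts higher in TAM minus Fibroblast and in TAM minus LLC were 10 to 13 and 10 to 14 with each library left out (12 each with all) and 11 to 13 and 12 to 14 under the other alternatives. With each library left out in turn, the count lower in TAM minus Fibroblast was 1 to 4 (3 with all), that higher in Fibroblast minus LLC 1 to 4 (4 with all), higher in TAM minus Total tumor 2 to 12 (10 with all), lower in LLC minus Total tumor 0 to 10 (5 with all) and higher in Fibroblast minus Total tumor 1 to 3 (3 with all). Without either Fibroblast library Clec11a and Clec14a fell under the filter, and without either TAM library Clec4b1 and Clec2g, so fewer genes were tested. The calls of Clec11a, Clec4b1 and Clec2g are among the 49 that were kept, but could not be lost in those fits. The number of all genes called also changed with libraries left out, so these ranges describe the fits and not the Clec genes alone. A pseudocount of 0.1 gave 6 higher in TAM minus Total tumor and 3 lower in LLC minus Total tumor. Over all 13311 genes tested it gave 1223 and 231. The count lower in LLC minus Total tumor was also 0 with no filter and 8 with a filter at 5 RPKM. It was 0 with only the groups compared. Over all genes the counts lower in these settings were 10 of 17626, 323 of 10431 and 0 of 12078. The cause was not tested. Uncalled differences that turned without the first TAM library ran, over the left-out libraries, from -2.34 to 0.85 for Clec3b in TAM minus LLC, from -0.98 to 0.088 for Clec16a in TAM minus Fibroblast and from -0.96 to 0.105 for Clec16a in TAM minus LLC. Upper-quartile scaling moved the median of all genes by -0.27 in TAM minus Fibroblast, 0.13 in TAM minus LLC and 0.42 in Fibroblast minus LLC. The labels do not tell whether libraries with equal replicate numbers share an origin, so they were not treated as pairs. Deviations from the group means correlated between sorted groups at 0.27 (TAM and LLC), 0.16 (TAM and Fibroblast) and 0.21 (Fibroblast and LLC), and with Total tumor at -0.36 (TAM), -0.18 (Fibroblast) and -0.23 (LLC); depth also differed by number in every group. With the replicate block, the counts higher were 12 in TAM minus Fibroblast, 12 in TAM minus LLC, 4 in Fibroblast minus LLC and 9 in TAM minus Total tumor, and the counts lower 2, 2, 2 and 2; in LLC minus Total tumor it gave 0 higher and 6 lower, and in Fibroblast minus Total tumor 2 higher and 12 lower. Over all 13311 genes the block gave 2039 higher and 2114 lower in TAM minus Fibroblast and 1895 and 3183 in TAM minus LLC. It gave 1621 and 2772 in Fibroblast minus LLC and 1325 and 2666 in TAM minus Total tumor. In LLC minus Total tumor it gave 5 and 254, and in Fibroblast minus Total tumor 1516 and 3323. With 2 libraries a group and 4.29 M reads in the shallowest, differences among members under 1 RPKM could not be measured.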
